A study of Mus musculus with 12 samples.

Results

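The SLC25 genes encode the mitochondrial carriers, a family of small transporters of which almost all sit in the inner mitochondrial membrane. They were taken as the protein-coding genes whose symbol is Slc25a followed by a number, with the uncoupling proteins left out. This gave 47 of the 55401 genes in the files, and 40 of the 47 had enough counts to be tested among 16540 genes of the series. RNA was measured by RNA-seq in scWAT, the white fat under the skin, of 12 female C57BL/6J mice aged 16 weeks at the start of treatment, 3 per group. The 4 groups came from 2 genotypes: wild-type animals and Jmjd1a HY/HY animals of 1 line (HY/HY), all caged singly, acclimated at 30°C for 1 week and then left at 30°C or moved to 8°C for 1 week. The HY allele was made by CRISPR and is carried in every tissue; it exchanges a histidine in the catalytic domain of JMJD1A, a demethylase of histone H3 lysine 9, and leaves the enzyme without activity.

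The inner membrane is closed to most metabolites, so most substrates that move between cytosol and matrix need a carrier. ADP/ATP exchangers and the phosphate carrier feed ATP synthase, the carnitine-acylcarnitine carrier brings in fatty acids for oxidation, the citrate carrier sends out citrate for fat synthesis, and others carry amino acids, coenzyme A, NAD or iron. In cold, beige adipocytes rich in mitochondria form in scWAT and burn fatty acids to make heat.

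Promoter sequence is shown for 5 carriers whose RNA is described in detail: Slc25a34, Slc25a20 and Slc25a42, which had the 3 largest rises of the family in cold wild-type mice, Slc25a17, which was called in cold in both genotypes, and Slc25a29, which fell in cold wild-type mice. Each run of 150 bases ends at the base before the gene as RefSeq bounds it on GRCm38.p6, and is read 5′ to 3′ on the strand of the gene. Capitals mark CCGGAAG, a site bound by ETS factors such as GABPA, a regulator of nuclear genes for mitochondria. Shorter or partial matches were not marked.
Slc25a34 (GRCm38.p6 chr4:141623892-141624041, minus strand): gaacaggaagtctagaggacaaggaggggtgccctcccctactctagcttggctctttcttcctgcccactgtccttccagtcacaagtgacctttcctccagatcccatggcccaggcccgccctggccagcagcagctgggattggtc
Slc25a20 (GRCm38.p6 chr9:108661986-108662135, plus strand): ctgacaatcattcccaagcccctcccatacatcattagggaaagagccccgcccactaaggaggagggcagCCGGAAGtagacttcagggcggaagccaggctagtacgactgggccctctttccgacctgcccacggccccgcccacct
Slc25a42 (GRCm38.p6 chr8:70212282-70212431, minus strand): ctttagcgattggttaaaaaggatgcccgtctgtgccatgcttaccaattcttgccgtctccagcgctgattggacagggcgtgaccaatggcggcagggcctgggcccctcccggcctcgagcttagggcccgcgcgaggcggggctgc
Slc25a17 (GRCm38.p6 chr15:81360766-81360915, minus strand): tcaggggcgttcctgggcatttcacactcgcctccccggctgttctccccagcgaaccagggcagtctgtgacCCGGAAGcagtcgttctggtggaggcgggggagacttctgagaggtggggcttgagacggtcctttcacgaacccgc
Slc25a29 (GRCm38.p6 chr12:108835877-108836026, minus strand): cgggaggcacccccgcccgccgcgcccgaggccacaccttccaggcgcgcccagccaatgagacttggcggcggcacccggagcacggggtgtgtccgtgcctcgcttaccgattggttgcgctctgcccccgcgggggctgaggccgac
The full CCGGAAG stood in the windows of Slc25a20 and Slc25a17 and not in the other 3. Over the 250 bases before the start, on both strands, CCGGAAG was found in 6 of 36 carriers with a promoter in the RefSeq table, and in 10.2% of all 17492 protein-coding genes there. It stood in 3 of the 11 carriers among these that rose in cold wild-type mice, and in 2 of the 20 others tested. The NRF1 motif, GCGCA and GCGC with 1 base between them, was found in 2 of the 36 carriers and in 5.84% of all genes. TNAAGGTCA, a site of estrogen-related receptors, was found in none of the 36 carriers and in 1.11% of all genes, and a PPAR element, AGGTCA repeated with 1 base between, in none of the 36 and in 0.0515% of all genes. These counts describe letters in a short window and were not tested.

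Counts on the sense strand came to between 13592629 and 26352081 per library. Every library at 30°C had more, at 18305586 or above, than any at 8°C, at 17955584 or below. Depth thus goes with temperature, and its part in the cold comparisons was not tested. The adipocyte markers Adipoq, Plin1, Fabp4 and others, 8 in all, were detected in every group. Their summed level in wild-type mice was 17054 to 28781 CPM (the count scaled to the size of the library) at 30°C and 25792 to 33707 at 8°C. In HY/HY mice it was 15121 to 41617 at 30°C and 31197 to 45342 at 8°C. Between the genotypes at 8°C all 8 were higher in HY/HY mice, with a median log2 fold change of 0.54 beside 0.01 over all genes. The allele is a point substitution, so the RNA level of its gene does not check the genotype labels. The summed level of 7 beige adipocyte markers was 65.4 to 242 CPM in both warm groups, 8348 to 9266 in the cold wild-type group and 533 to 1680 in the cold HY/HY group, where replicate 3 was lowest. The 12 skeletal muscle markers reached 1839 CPM in wild-type replicate 2 at 30°C against 24.9 to 59.2 in the other 11 libraries. The 12 mammary epithelium markers summed to 5238 to 6781 CPM in the warm wild-type group and 2288 to 3969 elsewhere, and the 8 macrophage markers to 193 to 335 in HY/HY mice against 132 to 173 in wild-type mice. The 10 lymph node markers reached 236 to 362 CPM in replicates 1 and 3 of HY/HY mice at both temperatures and 30.0 to 84.7 elsewhere, and the 5 erythroid markers ranged from 96.2 to 349. No marker was at 0 in every library. In whole tissue, fewer cells of a type and less RNA per cell cannot be told apart, and the part of these cell types in the results was not tested.

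The family was measured at very different levels. Per kilobase of exon, Slc25a1, the citrate carrier, was highest in each of the 4 groups. In wild-type mice at 30°C it stood at 463 ± 99.8 CPM per kilobase (SD, n = 3), above the phosphate carrier Slc25a3 at 205 ± 29.5, the dicarboxylate carrier Slc25a10 at 184 ± 33.6 and the ADP/ATP exchanger Slc25a5 at 179 ± 18.9. The ranges of these last 3 overlapped, so their order was not resolved. At 8°C the order in wild-type mice was Slc25a1 at 975 ± 127, Slc25a5 at 485 ± 23.4, and the carnitine-acylcarnitine carrier Slc25a20 at 287 ± 31.2, whose range overlapped that of Slc25a3 at 251 ± 13.6. In HY/HY mice at 8°C, Slc25a20 was 7th of the family at 117 ± 6.09 CPM per kilobase. The exon lengths come from an older annotation than that of the counts, so levels per length are approximate.

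The 7 carriers left untested for low counts are mostly known from other tissues. The germ cell ADP/ATP exchanger Slc25a31 had at most 11 counts in a library, Slc25a21 at most 10, Slc25a41 and Slc25a2 at most 6 each, Slc25a18 at most 5 and Slc25a43 at most 4. At 8°C Slc25a31 had 0 to 1 counts in wild-type and 4 to 9 in HY/HY mice. On these few counts, edgeR called it higher in HY/HY mice at 8°C without a filter on low counts (adjusted p = 0.044). The fits without HY/HY replicate 1, 2 or 3 at 30°C also tested and called it (0.047, 0.044 and 0.016). Slc25a54, a relative of the ATP-Mg/phosphate carriers, had 0 counts in all 12 libraries.

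In wild-type mice, cold raised carriers for adenine nucleotides, acylcarnitines, citrate, 2-oxoglutarate, coenzyme A, NAD and glutathione, among others. It lowered the basic amino acid carrier Slc25a29 and Slc25a27, a relative of the uncoupling proteins. Of the 40 carriers tested, 18 were called (edgeR quasi-likelihood test, with an adjusted p below 0.05 required together with a change past 1.5-fold up or 0.67-fold down), against 17.3% of all genes tested. Of these, 16 rose, where 10.3% of all genes did, and 2 fell, where 6.93% did. The libraries at 8°C lay wholly above those at 30°C for 21 carriers and wholly below for 5, against 20.7% and 22.7% of all genes. The median log2 fold change of the 40 was 0.46, beside -0.07 over all genes. With library totals in place of TMM scaling, which moved the median of all genes to -0.41, the median of the carriers was 0.11 and the split of 17 calls was 9 higher and 8 lower. The 7 rises no longer called under that scaling, each still positive, were those of Slc25a1, Slc25a4, Slc25a11, Slc25a15, Slc25a22, Slc25a26 and Slc25a35.

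**Figure D1:**
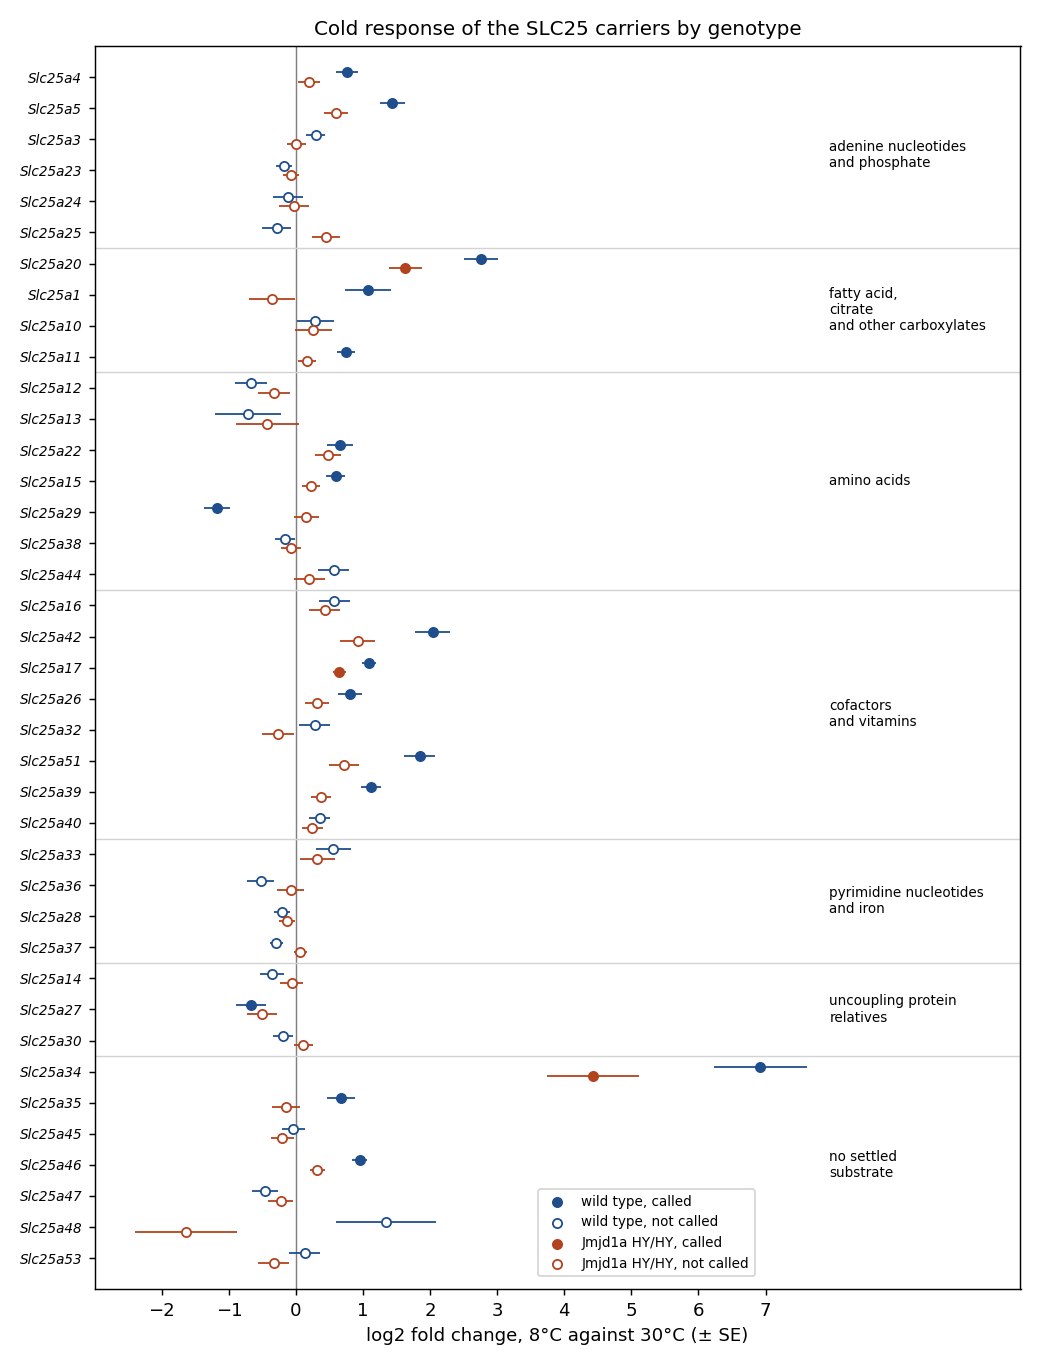
Log2 fold change of the carriers tested and named here, 8°C against 30°C, with its SE, in wild-type mice (blue) and Jmjd1a HY/HY mice (red), by substrate group. Filled points passed the test and the fold limit, 3 of them in HY/HY mice, and Slc25a34 lies farthest to the right in both genotypes.

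In HY/HY mice the cold response of the family was called for 3 carriers, Slc25a34, Slc25a20 and Slc25a17, all higher, where 0.248% of all genes were called and 0.181% were higher. The median log2 fold change of the 40 carriers was 0.13, beside -0.01 over all genes, and it turned to -0.004 with library totals. The libraries at the 2 temperatures did not overlap for 11 carriers, 10 of them higher at 8°C, against 18.3% of all genes. The count rested on single libraries: it was 0 without HY/HY replicate 1 or 2 at either temperature or without wild-type replicate 1 or 2 at 8°C, 1 without wild-type replicate 3 or HY/HY replicate 3 at 8°C, and 7 without HY/HY replicate 3 at 30°C. With only the 6 HY/HY libraries in the fit it was 0, and DESeq2 gave 5.

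At 8°C, HY/HY mice had less RNA than wild-type mice for the carriers of acylcarnitines, 2-oxoglutarate, coenzyme A and glutathione and for Slc25a34, and more for the basic amino acid carrier Slc25a29. In all, 6 carriers were called, 5 lower and 1 higher, where 5.93% of all genes were called, 4.42% lower and 1.51% higher. The HY/HY libraries lay wholly below the wild-type libraries for 19 carriers and wholly above for 4, against 19.0% and 16.4% of all genes. The median log2 fold change was -0.14, beside 0.01 over all genes, and -0.007 with library totals, where 6 calls split into 4 lower and 2 higher. Without HY/HY replicate 3 at 8°C, the library lowest in beige markers, 2 carriers were called, Slc25a34 and Slc25a42, and without HY/HY replicate 1 at 30°C 10 were. With only the 6 libraries at 8°C in the fit, 11 were called.

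At 30°C no carrier was called between the genotypes by edgeR, where 1.00% of all genes were, and 4 of the 40 had an unadjusted p under 0.05. DESeq2 called 1, Slc25a1. The interaction, which subtracts the wild-type cold response from that of HY/HY mice, was called at an adjusted p under 0.05 for 1 carrier, Slc25a29, where 2.24% of all genes were called, 0.169% with a positive difference. For 26 of the 40 carriers the difference was negative, with a median of -0.26 beside 0.04 over all genes (-0.04 and 0.25 with library totals). The interaction count was 9 with DESeq2, 3 without a filter on low counts and 2 with at least 10 counts required in every library. It was 7 without HY/HY replicate 1 at 30°C, 4 without wild-type replicate 3 at 30°C, and 0 without wild-type replicate 1 or 2 at 30°C, HY/HY replicate 2 at 30°C, any wild-type replicate at 8°C, or HY/HY replicate 1 or 3 at 8°C.

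**Figure D2:**
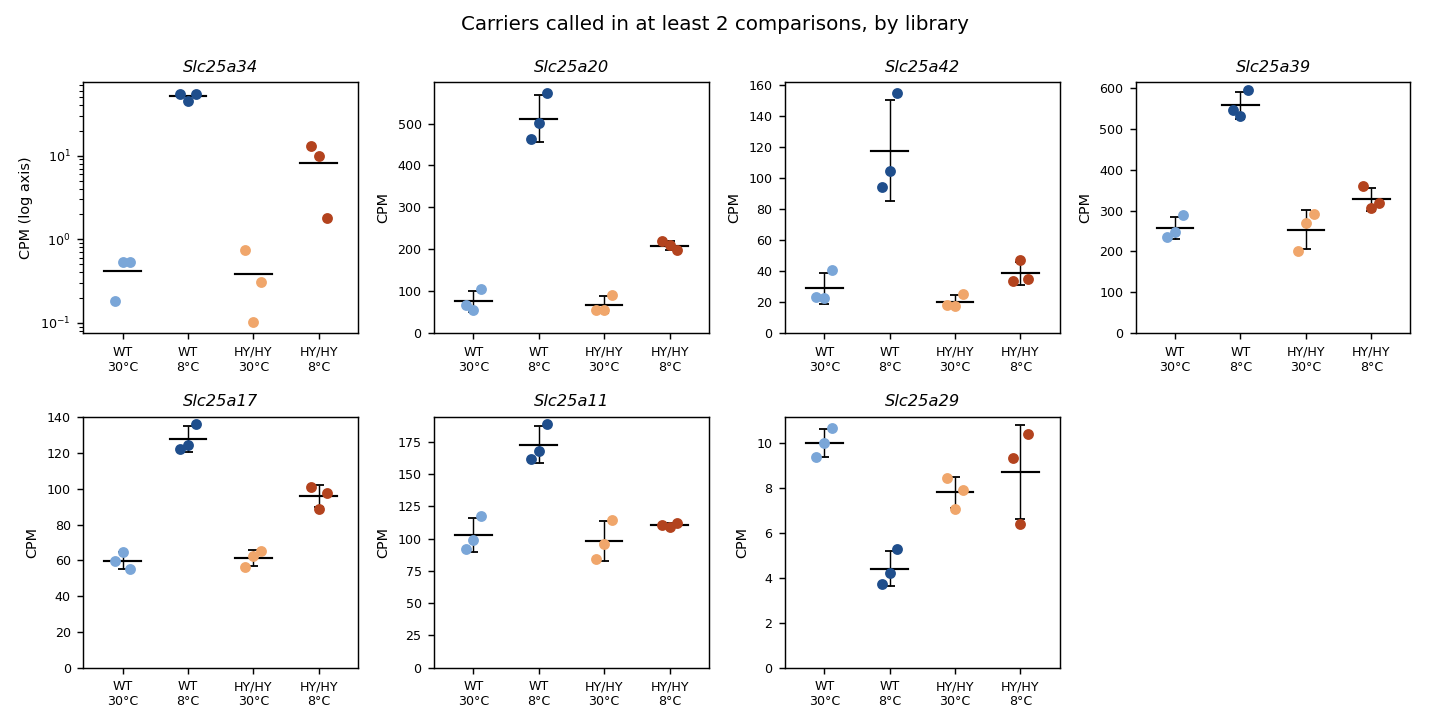
Level of the 7 carriers called in at least 2 comparisons, in CPM, with 1 point per mouse, a line at the mean and bars of 1 SD (n = 3); the panel of Slc25a34 has a log axis and no bars. In 6 panels the 3 wild-type mice at 8°C lie above all other mice, and for Slc25a29 they lie below them.

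Slc25a20 (chr9:108662136-108684642) is the carrier that lets acylcarnitines, the transport form of long-chain fatty acids, into the matrix for β-oxidation. Its level was 67.8, 55.2 and 104 CPM in wild-type mice at 30°C and 462, 501 and 572 at 8°C. In HY/HY mice it was 55.5, 55.8 and 90.9 CPM at 30°C and 219, 210 and 197 at 8°C. The groups at 8°C lay above both groups at 30°C and did not overlap each other. The rise was 6.77-fold in wild-type mice (log2 fold change 2.76 ± 0.25 SE, edgeR adjusted p = 4.2e-05) and 3.10-fold in HY/HY mice (1.63 ± 0.24, adjusted p = 0.022). At 8°C the level in HY/HY mice was 2.45-fold lower (log2 fold change -1.29 ± 0.24, adjusted p = 0.0091), and the adjusted p was 0.053 without HY/HY replicate 3. The difference between the 2 cold responses was -1.13 ± 0.34 on the log2 scale with an adjusted p of 0.12, and it was called by DESeq2 (adjusted p = 0.027) and without wild-type replicate 3 at 30°C (adjusted p = 0.025).

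Slc25a1 (chr16:17925211-17928219), which sends citrate to the cytosol where it is split for fat synthesis, was the most abundant carrier of its group. Its level was 821, 592 and 918 CPM in wild-type mice at 30°C and 1733, 1784 and 1390.3 at 8°C. In HY/HY mice it was 1021, 2696 and 1089.8 CPM at 30°C and 1021, 1518 and 1209 at 8°C. The wild-type groups did not overlap, whereas HY/HY replicate 2 at 30°C stood far above all the other mice. Cold raised it in wild-type mice (log2 fold change 1.07 ± 0.34, adjusted p = 0.040), a call lost without any 1 of wild-type replicates 1 and 2 at 30°C, the 3 wild-type replicates at 8°C or HY/HY replicates 1 and 3 at 8°C. In HY/HY mice the value was -0.36 ± 0.34 (adjusted p = 0.66). Acly, which splits the exported citrate, reached 6329 CPM in the same HY/HY library, against 1925 and 1726 in the other two of its group. The interaction of Slc25a1 was called by DESeq2 (log2 difference -1.46, adjusted p = 0.041) and not by edgeR (adjusted p = 0.17).

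The 2-oxoglutarate carrier Slc25a11 (chr11:70644019-70647531), a part of the malate-aspartate shuttle that moves reducing equivalents into the matrix, was at 92.0, 99.3 and 118 CPM in wild-type mice at 30°C and at 162, 168 and 189 at 8°C. HY/HY mice had 84.1, 96.1 and 115 CPM at 30°C and 111, 109 and 112 at 8°C. The wild-type mice at 8°C stood above the 3 other groups, which overlapped. Cold raised it 1.68-fold in wild-type mice (log2 fold change 0.75 ± 0.13, adjusted p = 0.0023) and the value in HY/HY mice was 0.17 ± 0.13 (adjusted p = 0.59). The level in HY/HY mice at 8°C was 1.56-fold lower (-0.64 ± 0.13, adjusted p = 0.015), a call lost without wild-type replicate 3 or HY/HY replicate 1 or 3 at 8°C and with library totals. Slc25a11 overlaps Rnf167 in RefSeq, and 3.42% of the reads on its locus were on the other strand. The dicarboxylate carrier Slc25a10, which exchanges malate or succinate for phosphate, was not called in any comparison. Its mean was 372 ± 68 CPM and 455 ± 20.4 in wild-type mice at 30°C and 8°C, and 593 ± 209 and 710 ± 219 in HY/HY mice.

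Among the carriers for cofactors, Slc25a42 (chr8:70184340-70212281), which brings coenzyme A into the matrix, had the second largest rise of those with a known substrate. Its level was 23.2, 22.5 and 40.4 CPM in wild-type mice at 30°C and 93.9, 104 and 155 at 8°C. In HY/HY mice it was 18.2, 17.4 and 25.2 CPM at 30°C and 33.7, 46.8 and 34.7 at 8°C. The HY/HY mice at 8°C stood above their own 30°C group and overlapped the wild-type mice at 30°C. Cold raised it 4.11-fold in wild-type mice (log2 fold change 2.04 ± 0.26, adjusted p = 3.0e-04), and the value in HY/HY mice was 0.92 ± 0.26 (adjusted p = 0.16). At 8°C it was 3.06-fold lower in HY/HY than in wild-type mice (-1.62 ± 0.26, adjusted p = 0.0048), and that call held in all 20 alternatives. The rise in HY/HY mice was called by DESeq2 (adjusted p = 0.034) and without HY/HY replicate 3 at 30°C (edgeR adjusted p = 0.04995). The interaction of Slc25a42 was called without wild-type replicate 3 at 30°C (edgeR adjusted p = 0.036).

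Slc25a17 (chr15:81318921-81360765), a peroxisomal member that carries coenzyme A, FAD and NAD, was measured with the smallest SE of the called carriers. It was at 59.9, 64.5 and 55.0 CPM in wild-type mice at 30°C and at 122, 125 and 136 at 8°C. HY/HY mice had 56.3, 62.4 and 65.3 CPM at 30°C and 101, 89.0 and 97.8 at 8°C. The groups at 8°C overlapped neither each other nor the groups at 30°C. The rise was 2.13-fold in wild-type mice (log2 fold change 1.09 ± 0.10, adjusted p = 4.3e-05) and 1.57-fold in HY/HY mice (0.65 ± 0.10, adjusted p = 0.026). Between the genotypes at 8°C the log2 difference was -0.41 ± 0.10 with an adjusted p of 0.031, which passed the test and not the fold limit. The interaction of Slc25a17 was called by DESeq2 (adjusted p = 0.045) and not by edgeR (adjusted p = 0.15).

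Slc25a39 (chr11:102402969-102408675), which brings glutathione into mitochondria, was the most abundant carrier for cofactors. Wild-type mice had 236, 247 and 288 CPM at 30°C and 547, 533 and 595 at 8°C. HY/HY mice had 201, 269 and 291 CPM at 30°C and 360, 307 and 318 at 8°C. Both cold groups stood above both warm groups, with a gap between the genotypes at 8°C. Cold raised it 2.17-fold in wild-type mice (log2 fold change 1.12 ± 0.15, adjusted p = 4.3e-04), the value in HY/HY mice was 0.37 ± 0.15 (adjusted p = 0.29), and at 8°C HY/HY mice were 1.70-fold lower (-0.77 ± 0.15, adjusted p = 0.012). The last call was lost without wild-type replicate 3 or HY/HY replicate 3 at 8°C. Its relative Slc25a40 was called in no comparison, with group means of 7.21 to 9.74 CPM. The interaction of Slc25a39 was called by DESeq2 (adjusted p = 0.013) and without HY/HY replicate 1 at 30°C (edgeR adjusted p = 0.024).

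Slc25a51 and Slc25a26, of the same group, also rose in cold wild-type mice. The NAD carrier Slc25a51 went from 89.4 ± 14.8 to 321 ± 28.7 CPM (log2 fold change 1.84 ± 0.23, adjusted p = 2.1e-04) and in HY/HY mice from 123 ± 41.2 to 201 ± 24.8 (0.71 ± 0.22, adjusted p = 0.19). The S-adenosylmethionine carrier Slc25a26 rose by 0.81 ± 0.18 on the log2 scale in cold wild-type mice (adjusted p = 0.0074), not called with library totals; it overlaps Lrig1, and 16.9% of the reads on its locus were on the other strand. Between the genotypes at 8°C the log2 differences of Slc25a51 and Slc25a26 were -0.67 and -0.31, with edgeR adjusted p of 0.090 and 0.33, and neither was called. The difference of Slc25a51 was called by DESeq2 (adjusted p = 0.035), with only the libraries at 8°C in the fit (0.0079) and without HY/HY replicate 1 or 3 at 30°C (0.022 and 0.046). Its interaction was called by DESeq2 (log2 difference -1.16, adjusted p = 0.016), without a filter on low counts (0.042) and without HY/HY replicate 1 at 30°C (0.0084), and its rise in HY/HY mice without HY/HY replicate 3 at 30°C (0.035). Slc25a16 and the folate carrier Slc25a32 were called in no comparison, with group means of 25.6 to 52.5 CPM, although Slc25a16 was called higher in cold wild-type mice with only their 6 libraries in the fit (adjusted p = 0.024).

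Among the carriers of adenine nucleotides and phosphate, both ADP/ATP exchangers found in the tissue rose in cold wild-type mice and the others were not called. Slc25a5, the widely expressed exchanger ANT2, went from 222 ± 23.4 to 601 ± 29 CPM (2.70-fold, log2 fold change 1.43 ± 0.18, adjusted p = 2.8e-04), and in HY/HY mice from 288 ± 73.6 to 436 ± 58.8 (0.60 ± 0.18, adjusted p = 0.18). The rise in HY/HY mice was called by DESeq2 (adjusted p = 0.043) and without HY/HY replicate 3 at 30°C (edgeR adjusted p = 0.028). The interaction of Slc25a5 was called by DESeq2 (adjusted p = 0.029) and without HY/HY replicate 1 at 30°C (edgeR adjusted p = 0.027). Slc25a4, the exchanger ANT1 of heart and skeletal muscle, went from 256 ± 32.9 to 433 ± 30.1 CPM in wild-type mice (0.76 ± 0.16, adjusted p = 0.0068) and was at 284 ± 63.1 and 324 ± 23.5 in HY/HY mice. It was at 258 CPM in the wild-type library with high muscle markers, between 223 and 289 in the other two of that group, and its log2 fold change stayed called in each fit that left out 1 library. At 8°C the log2 differences between the genotypes were -0.46 ± 0.18 and -0.42 ± 0.16 for Slc25a5 and Slc25a4, each with an adjusted p of 0.15.

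The phosphate carrier Slc25a3, which supplies ATP synthase together with these exchangers, had the highest mean CPM of its group over all 12 libraries, though in wild-type mice at 8°C it lay below Slc25a5. It was at 349, 385 and 461 CPM in wild-type mice at 30°C and 460, 512 and 494 at 8°C, and at 375, 476 and 450 and at 421, 450 and 437 in HY/HY mice. All 4 groups lay between 349 and 512 CPM, and the lowest wild-type mouse at 8°C, at 460, lay just under the highest at 30°C, at 461. The log2 fold change in cold was 0.30 ± 0.14 in wild-type mice (adjusted p = 0.14) and 0.01 ± 0.14 in HY/HY mice (adjusted p = 0.99). The ATP-Mg/phosphate carriers Slc25a23, Slc25a24 and Slc25a25, which are set by calcium and change the total adenine nucleotides of the matrix, had log2 fold changes of -0.29 to -0.12 in cold wild-type mice, none of them called. Slc25a25 was higher in all 3 HY/HY mice at 8°C than in wild-type mice, by 0.67 ± 0.21 on the log2 scale (adjusted p = 0.080), a difference that was called by DESeq2 (adjusted p = 0.049), with library totals (0.027) and with only the libraries at 8°C in the fit (0.022). With library totals Slc25a25 was also called lower in cold wild-type mice (adjusted p = 0.024).

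The carriers of amino acids moved in both directions. Slc25a29 (chr12:108825878-108835876), a carrier of basic amino acids, was at 9.38, 9.99 and 10.6 CPM in wild-type mice at 30°C and at 3.72, 4.22 and 5.26 at 8°C. HY/HY mice had 8.41, 7.06 and 7.9 CPM at 30°C and 9.32, 6.38 and 10.4 at 8°C. The wild-type mice at 8°C stood below all 9 other mice, and the HY/HY groups overlapped. It fell by 1.18 ± 0.20 on the log2 scale in cold wild-type mice (adjusted p = 0.0015), a 2.27-fold fall called in all 20 alternatives, while the value in HY/HY mice was 0.16 ± 0.19 (adjusted p = 0.75). It was 1.97-fold higher in HY/HY than in wild-type mice at 8°C (0.97 ± 0.20, adjusted p = 0.014). At 30°C the HY/HY mice all lay below the wild-type mice, with a log2 difference of -0.36 ± 0.19 that was not called (edgeR adjusted p = 0.33). The 2 cold responses differed by 1.34 ± 0.27 (adjusted p = 0.031, 0.00095 to 0.094 over 19 alternatives). The genotype call was lost without wild-type replicate 1 or 2 or HY/HY replicate 1 or 3 at 8°C, and the interaction in the 8 fits without 1 library in which its count was 0.

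The glutamate carrier Slc25a22 (chr7:141429749-141437874) was the most abundant carrier of amino acids. It was at 85.1, 82.3 and 121 CPM in wild-type mice at 30°C and at 139, 151 and 165 at 8°C, and at 81.0, 85.4 and 127 and at 137, 120 and 150 in HY/HY mice. In wild-type mice the groups did not overlap, and in HY/HY mice they did. The log2 fold change was 0.66 ± 0.19 in wild-type mice (adjusted p = 0.029) and 0.48 ± 0.19 in HY/HY mice (adjusted p = 0.28), and 4 of the 12 fits without 1 library lost the wild-type call, those without replicate 1 or 2 at 30°C or 2 or 3 at 8°C. The rise in HY/HY mice was called without HY/HY replicate 3 at 30°C (edgeR adjusted p = 0.043). The ornithine/citrulline carrier Slc25a15 rose from 12.1 ± 1.11 to 18.3 ± 0.0155 CPM in wild-type mice (0.59 ± 0.14, adjusted p = 0.0096), not called with library totals, without a filter on low counts, or without wild-type replicate 2 or 3 at 30°C. The carrier of branched-chain amino acids Slc25a44 had a value of 0.57 ± 0.23 in the same comparison (adjusted p = 0.093), called without wild-type replicate 3 at 30°C (0.026). The aspartate/glutamate carriers Slc25a12 and Slc25a13, which work with Slc25a11 in the malate-aspartate shuttle, had values of -0.67 ± 0.24 and -0.71 ± 0.49 (adjusted p = 0.059 and 0.30), opposite in sign to that of Slc25a11. The value of Slc25a12 was called with library totals (adjusted p = 0.019), without a filter on low counts (0.044), without wild-type replicate 3 at 30°C (0.011) and without HY/HY replicate 3 at 30°C (0.026). Slc25a38, which brings in glycine for heme, was at 17.4 to 19.4 CPM in the 4 group means and was called in no comparison.

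None of the 4 carriers of pyrimidine nucleotides and iron was called in any comparison by edgeR with TMM scaling and 4 group means fitted to the 12 libraries. The pyrimidine nucleotide carrier Slc25a33 was lower in all 3 HY/HY mice at 8°C than in the wild-type mice, with a log2 difference of -0.77 ± 0.26 (adjusted p = 0.10), which was called with only the libraries at 8°C in the fit (0.024) and without HY/HY replicate 1 at 30°C (0.027). Slc25a36, a pyrimidine nucleotide carrier and the most abundant of them, was at 111, 129 and 76.4 CPM in wild-type mice at 30°C and 77.3, 73.7 and 69.6 at 8°C, and at 87.7, 92.0 and 56.7 and at 71.1, 82.8 and 70.0 in HY/HY mice. The wild-type groups overlapped, and Slc25a36 was called lower in cold wild-type mice with library totals (adjusted p = 0.021) and without wild-type replicate 3 at 30°C (0.017). Slc25a37, the iron carrier mitoferrin 1, passed the test in cold wild-type mice with an adjusted p of 0.042 and not the fold limit, at a log2 fold change of -0.30 ± 0.10, and was called with library totals (-0.63, adjusted p = 0.0075). Of the 3 relatives of the uncoupling proteins, Slc25a27 (UCP4) fell by 0.67 ± 0.22 in cold wild-type mice (adjusted p = 0.047), a call lost in 8 of the 12 fits without 1 library: without wild-type replicate 1 or 2 at 30°C or 2 or 3 at 8°C, HY/HY replicate 2 at 30°C, or any HY/HY replicate at 8°C. Slc25a30 (KMCP1), the most abundant of them, was at 21.1, 17.7 and 14.6 CPM in wild-type mice at 30°C and 16.1, 16.1 and 14.5 at 8°C, and at 16.3, 18.1 and 18.3 and at 20.2, 16.3 and 20.5 in HY/HY mice. These groups overlapped within each genotype, and neither Slc25a30 nor Slc25a14 (UCP5) was called, save Slc25a14 with library totals in cold wild-type mice (-0.69, adjusted p = 0.021).

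Slc25a34 (chr4:141618819-141623891), a carrier whose substrate is not settled, had the largest fold change of the family. It was at 0.181, 0.541 and 0.531 CPM in wild-type mice at 30°C, 4 to 15 counts per library, and at 54.5, 45.4 and 55.1 CPM at 8°C. In HY/HY mice it was at 0.736, 0.103 and 0.312 CPM at 30°C, 3 to 19 counts, and at 12.9, 9.88 and 1.79 at 8°C. The cold groups of both genotypes lay above the warm groups and did not overlap, and HY/HY replicate 3, the cold library lowest in beige markers, was also lowest here. The fitted rise was 121-fold in wild-type mice (log2 fold change 6.92 ± 0.69, adjusted p = 6.1e-05) and 21.5-fold in HY/HY mice (4.42 ± 0.69, adjusted p = 0.025), both resting on the few counts at 30°C. At 8°C the level was 6.22-fold lower in HY/HY mice (-2.64 ± 0.52, adjusted p = 0.012), and this call held in all 19 alternatives that could be fitted. The difference between the 2 cold responses was -2.49 ± 1.07 with an adjusted p of 0.30.

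Slc25a35, the most abundant carrier without a settled substrate, was at 52.4, 70.0 and 69.6 CPM in wild-type mice at 30°C and at 106, 93.8 and 105 at 8°C, and at 59.4, 121 and 82.6 and at 76.1, 77.0 and 83.5 in HY/HY mice. The wild-type groups did not overlap, and HY/HY replicate 2 at 30°C was the highest of all. Its rise in wild-type mice (0.67 ± 0.21, adjusted p = 0.037) was lost in 7 of the 12 fits without 1 library: without wild-type replicate 1 or 2 at 30°C, any wild-type replicate at 8°C, or HY/HY replicate 1 or 2 at 8°C. It overlaps Rangrf, and 6.76% of the reads on its locus were on the other strand. The interaction of Slc25a35 was called without HY/HY replicate 1 at 30°C (edgeR adjusted p = 0.030). Slc25a46, an outer membrane member involved in the shape of mitochondria, rose from 44.8 ± 2.51 to 86.6 ± 6.35 CPM in wild-type mice (0.95 ± 0.11, adjusted p = 1.6e-04) and was at 55.4 ± 6.76 and 69.2 ± 6.13 in HY/HY mice (0.32 ± 0.11, adjusted p = 0.23). Its interaction was called by DESeq2 (adjusted p = 0.010). In edgeR it was called with at least 10 counts in every library (adjusted p = 0.049) and without HY/HY replicate 1 at 30°C (0.025). Slc25a45, Slc25a47 and Slc25a53 were called in no comparison, with group means of 3.63 to 12.7 CPM, save Slc25a47 with library totals, lower in cold wild-type mice (adjusted p = 0.018). Slc25a48 reached 26.3 CPM in HY/HY replicate 2 at 30°C and 2.03 to 14 in the other 11 libraries, with an SE of 0.73 to 1.06 on the log2 scale, and was called only where just the 6 libraries compared were fitted, higher in cold wild-type mice (adjusted p = 0.036) and lower in HY/HY mice at 8°C (0.015).

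**Figure D3:**
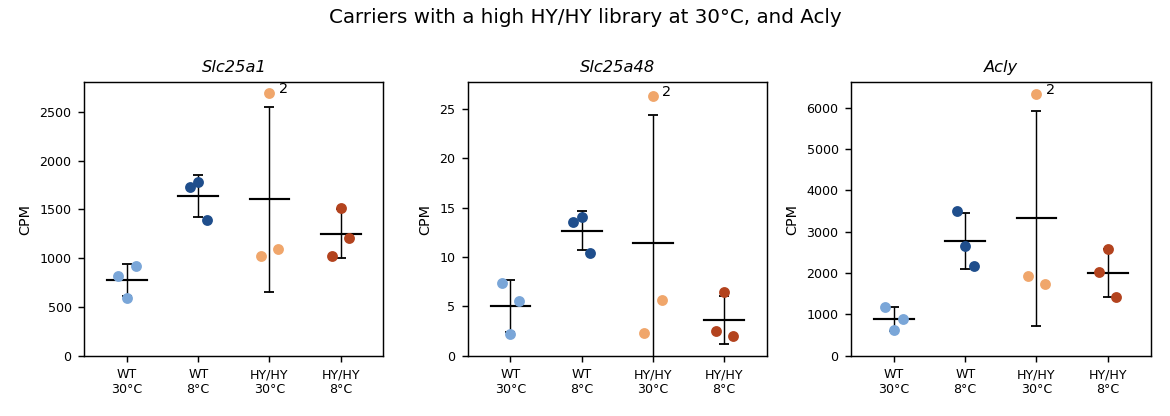
Level in CPM of Slc25a1 and Slc25a48 and of Acly, which is not a carrier, with 1 point per mouse, a line at the mean and bars of 1 SD (n = 3, the lower bar of Slc25a48 cut at 0). HY/HY replicate 2 at 30°C, marked 2, was the highest library of its group in each panel and reached 2696 CPM for Slc25a1.

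Other genes that move substrates through the mitochondrial membranes were taken as a list of 37 for comparison. In cold wild-type mice 20 of the 37 were called, all higher, where 10.3% of all genes were called higher, with a median log2 fold change of 0.67. At 8°C 9 were lower and 1 was higher in HY/HY mice, against 4.42% and 1.51% of all genes, with a median of -0.29. An interaction was called for 7, all negative, against 2.24% of all genes in either direction. Genes of the list called both in cold wild-type mice and between the genotypes were Ucp1, Mpc2, Cpt1b, Mcu, Smdt1, Letm1, Letmd1 and Abcb8. Both comparisons use the same wild-type libraries at 8°C, so high values there move these differences in opposite directions, and the calls are not independent. Mpc2, a subunit of the pyruvate carrier, had a mean of 117 CPM in wild-type mice at 30°C, 669 at 8°C, and 221 and 338 in HY/HY mice (log2 differences of 2.52 ± 0.22 in cold wild-type mice and -0.99 ± 0.21 between the genotypes at 8°C, adjusted p = 3.3e-05 and 0.017). Letm1, an ion exchanger of the inner membrane, had differences of 2.66 ± 0.17 and -1.17 ± 0.16 in the same comparisons (adjusted p = 1.2e-05 and 0.0024). Those of its relative Letmd1 were 2.84 ± 0.20 and -2.01 ± 0.20 (adjusted p = 1.7e-05 and 6.3e-04). The calcium uniporter Mcu and its subunit Smdt1 rose by 0.69 ± 0.13 and 1.00 ± 0.14 in cold wild-type mice, and had differences of -0.72 ± 0.13 and -0.69 ± 0.14 between the genotypes at 8°C. Abcb8, an ABC transporter, had 1.32 ± 0.14 and -0.76 ± 0.14. Ucp1, the uncoupling protein of beige and brown fat and a member of the same protein superfamily, had a mean of 5484 CPM in wild-type and 575 in HY/HY mice at 8°C, against 2.02 and 1.23 at 30°C. It is also among the beige adipocyte markers.

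Enzymes that use or make what the carriers move were described in the same way. The carnitine palmitoyltransferases, Cpt1b among them, stand in this list and in that of the transport genes. Of 41 tested, 21 rose and 3 fell in cold wild-type mice, against 10.3% and 6.93% of all genes, with a median log2 fold change of 0.70. In HY/HY mice at 8°C 8 were lower and none higher, against 4.42% and 1.51% of all genes, with a median of -0.28. The 8 were Cpt1b, Cs, Mdh2, Got1, Pdha1, Ogdh, Dlst and Pank1, and all 8 had risen in cold wild-type mice. As the wild-type libraries at 8°C are in both comparisons, these results are not independent. Pank1, a kinase that starts coenzyme A synthesis, rose by 3.80 ± 0.26 in cold wild-type mice (adjusted p = 1.6e-05) and was lower in HY/HY mice at 8°C, at -2.05 ± 0.24 (adjusted p = 0.0012), beside 2.04 and -1.62 for the coenzyme A carrier Slc25a42. Cpt1b, an enzyme that makes acylcarnitines of the kind that Slc25a20 carries, was at 4.70 CPM in wild-type and 0.664 in HY/HY mice at 8°C (-2.76 ± 0.55, adjusted p = 0.012). Pdha1, Ogdh and Dlst, subunits of pyruvate and 2-oxoglutarate dehydrogenase, had log2 differences of 1.60, 1.87 and 1.90 in cold wild-type mice and -0.67, -1.03 and -1.0 between the genotypes at 8°C. The citrate synthase Cs and the malate dehydrogenase Mdh2 had 1.93 and 1.84 in cold wild-type mice and -0.96 and -0.92 between the genotypes, and Got1 of the malate-aspartate shuttle had 0.82 and -1.49.

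The 73 nuclear genes for subunits of the respiratory chain and ATP synthase moved more uniformly than the carriers did. Of these, 68 rose in cold wild-type mice, against 10.3% of all genes, with a median log2 fold change of 1.5. In HY/HY mice at 8°C 63 were lower, against 4.42% of all genes, with a median of -1.0. The interaction was called for 44 of the 73, all negative, against 1 of the 40 carriers and 2.24% of all genes in either direction. The difference between the lists was not tested.

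**Figure D4:**
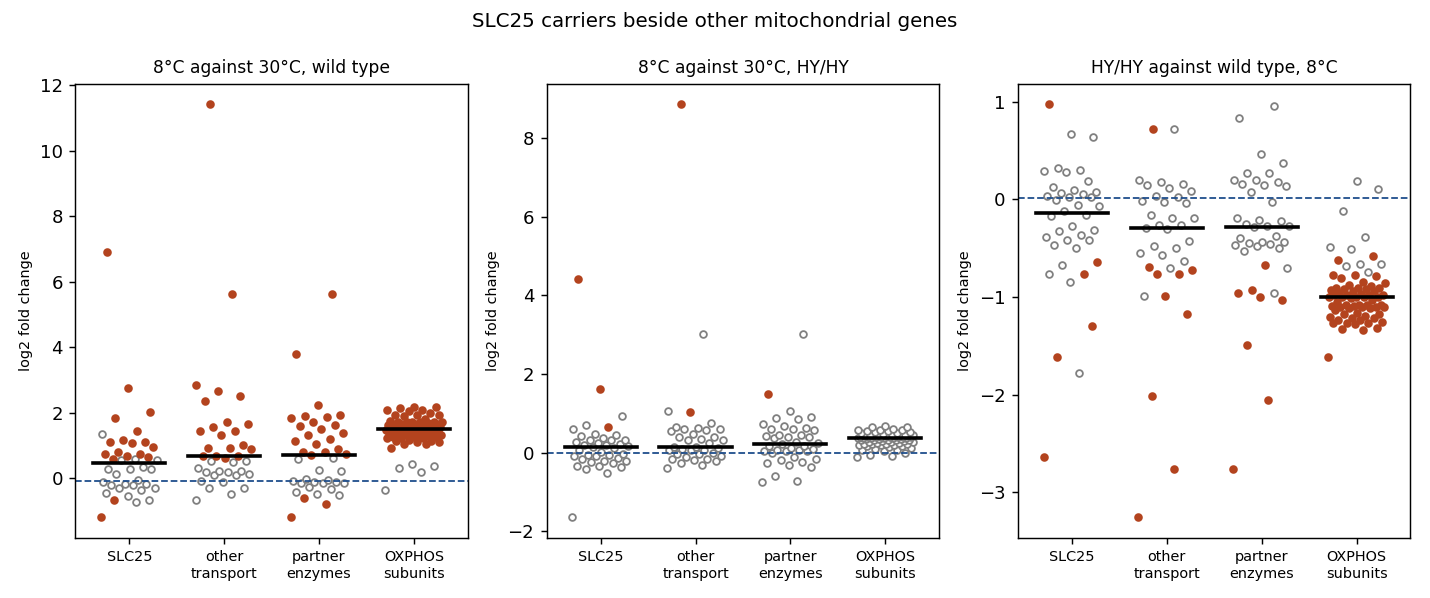
Log2 fold change of each gene tested in 3 comparisons, for the 40 SLC25 carriers, 37 other transport genes, 41 partner enzymes and 73 subunits of oxidative phosphorylation (OXPHOS); filled points were called, black lines are medians and the dashed line is the median of all 16540 genes. The medians in cold wild-type mice were 0.46, 0.67, 0.70 and 1.5 in this order, and the carriers spread to both sides of the dashed line. The carnitine palmitoyltransferases are shown both as transport genes and as partner enzymes.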

How the data were processed

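The authors trimmed paired 50-base reads with fastp, used STAR for alignment to mm10, and deposited unnormalised counts, in read pairs per gene and library. Pairs aligned to several places, 26.7% to 32.2%, are not counted, so carriers with near-identical pseudogenes, such as Slc25a5 and Slc25a3, may be undercounted. Rows that name no gene stayed out of library sizes and tests; besides these pairs they held 25.1% to 28.8% unaligned, 1.99% to 3.20% outside genes and 0.930% to 1.10% ambiguous. The sense-strand column was used, with 95.5% to 96.2% of the counts on either strand. Of 55401 IDs, 32589 were matched to a symbol, and all 47 carriers that RefSeq lists were found. Coordinates and promoters are RefSeq's on GRCm38.p6, the assembly of mm10, and lengths are exon unions of GENCODE M1.

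One quasi-likelihood model with 4 group means was fitted in edgeR 4.0.16 (R 4.3.3) to the 12 libraries, after filterByExpr and TMM, with 8 residual degrees of freedom. P-values are two-sided and adjusted by Benjamini-Hochberg over all 16540 genes. SE is that of the log2 fold change. On simulated counts for cold in wild-type mice (16163 genes, 200 changed) the model called 80 of 104 genes changed 2-fold, 96 of 96 changed 4-fold and 9 of the unchanged genes. For the genotypes at 8°C it called 62 of 104, 96 of 96 and 7. The simulation gave every gene the same dispersion and changed fewer genes than were called in the data. Alternatives were DESeq2 1.42.0, other scaling, filters and limits, both strands, only the libraries compared, the replicate number as a block, and each library left out. Mice with the same replicate number are different animals. Their deviations from the group means correlated at -0.07 to 0.14 for replicate 1 and -0.04 to 0.20 for replicate 2. For replicate 3 the values were 0.11 to 0.35, above 0.1 in every pair. As this did not hold for the other replicate numbers, the numbers were not taken to pair the mice.

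Per-library values are given for carriers called in at least 2 of 5 comparisons and for the most abundant carrier of each of 7 substrate groups. Genes of the comparison lists are named when called both in cold wild-type mice and between the genotypes at 8°C. These comparisons share the wild-type libraries at 8°C. One member that is in the counts is not reported here by name. Other carriers named, and Acly, were chosen after their values were seen. The members, lists and rules were chosen with earlier results of these data known. The labels name the 3 libraries of a group only as replicates, and the p-values measure the spread between them.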

Additional observations from a re-analysis of the deposited data

Results flagged for a closer look

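The cold response of Slc25a29, a carrier of basic amino acids, differed between the genotypes by 1.34 on the log2 scale (HY/HY minus wild-type mice, edgeR adjusted p = 0.031). Its level in all 3 wild-type mice at 8°C was below that of all 3 at 30°C, and in HY/HY mice the groups overlapped. At 30°C all 3 HY/HY mice lay below the wild-type mice. That log2 difference of -0.36 (edgeR adjusted p = 0.33) is part of the interaction. Of all genes, 2.24% had a called interaction and 0.169% a positive one, and the call was lost in 8 of the 12 fits without 1 library. Groups of 3 mice are too small to test for single outlying libraries.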

How the results depend on the processing

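The 28 calls of single carriers gave 556 values over up to 20 alternatives each: 473 stayed called, 83 kept their direction without passing, and none turned sign; 12 of the 28 stayed called in all of theirs. The 18 carriers called in cold wild-type mice became 13 to 20 with 1 library left out. The 3 called in cold HY/HY mice became 0 to 7 with 1 library left out, 5 with DESeq2 and 0 with only the libraries compared. The 6 called between the genotypes at 8°C became 2 to 10 with 1 library left out and 11 with only the libraries compared. At 30°C DESeq2 called 1. The interaction count of 1 became 0 to 7 with 1 library left out, 9 with DESeq2, 3 without a filter and 2 with at least 10 counts in every library. The cause of these shifts was not tested. With the replicate number as a block the counts were 19, 3, 8, 0 and 5 in the same order. Among the calls the block added were the genotype differences of Slc25a51 and Slc25a33 at 8°C (edgeR adjusted p = 0.025 and 0.035). The fall of Slc25a12 in cold wild-type mice was another (0.019). It also added the interactions of Slc25a5, Slc25a20, Slc25a46 and Slc25a51 (0.040, 0.048, 0.026 and 0.029). The numbers are not known to pair the mice.

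Library totals moved the median of the carriers to 0.11 in cold wild-type mice, -0.004 in cold HY/HY mice, -0.007 for genotype in the cold and -0.04 for the interaction, beside medians of all genes of -0.41, -0.15, 0.15 and 0.25. At 30°C the median of the carriers went from 0.03 to -0.05. Depth limits the cold response of Slc25a34, which rests on 3 to 19 counts per library at 30°C.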
